A study of Mus musculus with 4 samples.

Results

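The genes described are the nuclear genes of the mitochondrial ribosome, taken as every row whose symbol starts with Mrpl or Mrps followed by a digit. There were 78 of them among the 17485 genes of the table, 49 of the large subunit (Mrpl) and 29 of the small subunit (Mrps). Heart tissue of Klf9 knockout mice (2 libraries) was compared with that of wild-type mice (2 libraries) by bulk sequencing of total RNA, to examine the bearing of the Krüppel-like transcription factor Klf9 on cardiac mitochondria. Mice of both groups were labelled male and 8 weeks old, with feeding and drinking described as random. The labels gave neither strain, nor how the Klf9 allele was made, nor whether replicate libraries stem from different mice, and the p-values therefore cover no more than the variation among the 4 libraries, possibly technical.

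The mitochondrial ribosome translates the few messenger RNAs of the mitochondrial genome, which encode core subunits of the respiratory chain. All of its proteins are encoded in the nucleus, made in the cytosol and imported, where they assemble on ribosomal RNAs transcribed from mitochondrial DNA. In the heart, which depends on oxidative phosphorylation, inherited defects of several of these proteins in humans cause disease, among them hypertrophic cardiomyopathy with defects of MRPL3 or MRPL44.

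The table held no levels but log2 ratios, one for each pair of a knockout and a wild-type library, from which one value per gene and library was recovered. Their unit was not stated, so levels are compared between libraries and not between genes, and the depth of each library is unknown. They summed to 409359 and 418974 in the knockout libraries and to 426032 and 489534 in the wild-type libraries. The column names do not spell out which library is on top of a ratio. They were read as knockout over wild type, which puts Klf9 at 2.66 and 1.99 in knockout and at 74.9 and 58.8 in wild type; Klf9 is therefore no independent check of the labels. Knockout replicate 2 went against its label of male sex: of the Y-linked genes, Ddx3y stood at 7.82 and 0.01 in knockout replicates 1 and 2, against 14.6 and 17.1 in wild type, and Kdm5d at 4.01 and 0.01, against 3.42 and 3.97. Counts are also given without that library. The 8 cardiomyocyte markers summed to 34439 and 32092 in knockout, between the 31159 and 35365 of wild type. Taken gene by gene, 2 of the 8 were lower and 0 higher with limma (the same counts at an unadjusted p below 0.05; 6 lower and 2 higher by DEGseq in the authors' deposited table), 6 had a negative fold change, both knockout libraries lay below both wild-type libraries in 5, and their median log2 fold change was -0.47. Some other marker lists moved with the groups, and others did so less. All 8 proliferation genes were higher in knockout (summed level 111 and 148, against 7.2 and 7.93 in wild type), 6 of 7 macrophage markers were lower (43.7 and 43.0 against 133 and 181), and Tnni1, the troponin I of the fetal heart, stood at 656 and 994 against 0.16 and 0.01. Of 6 fibroblast markers 3 were higher and 1 lower, of 6 smooth muscle and pericyte markers 4 were higher and 1 lower, and the 3 tested epicardial markers were higher. Of 6 endothelial markers 2 were higher and 0 lower, with overlapping sums (1134 and 1252 in knockout, 1104 and 2047 in wild type). Of 6 red cell markers 1 was higher and 0 lower, and of 3 tested skeletal muscle markers 1 was higher and 1 lower. Esr1 stood at 0.09 and 0.03 in knockout against 3326 and 2726 in wild type. Whether the groups differ in stage, despite the age on the labels, or in anything else besides Klf9 was not tested. The part of these differences in the results was not tested, and fewer cells of a type and less RNA per cell cannot be told apart in bulk samples.

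Of the 78 mitochondrial ribosomal protein genes, 38 fell in knockout hearts and 40 did not pass the test. The fold change was negative in 73, and its median was -0.55 in each subunit. All 78 passed the filter on low values (at least 1 in at least 2 libraries). With limma on log2(value + 1) and Benjamini-Hochberg adjustment over all 12135 tested genes, those that fell (adjusted p below 0.05) were 48.7% of the members, where 17.0% of all tested genes were lower. None rose, where 27.7% of all tested genes were higher, and at an unadjusted p below 0.05 the members numbered 50 lower and 0 higher (20.3% and 32.1% of all tested genes). The fitted fold change was at least 2-fold lower in 6 members, which held for 7.37% of all tested genes. In the authors' deposited table, DEGseq gave 70 members lower, 4 higher and 4 neither at q below 0.05, where 33.6% and 47.5% of the tested genes were lower and higher. The median log2 fold change of the members was -0.55, against 0.12 for all tested genes, and the quartiles of the members were -0.73 and -0.36.

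The subunits were set side by side without a test of their difference. In the large subunit 25 of 49 genes fell (51.0%) and in the small subunit 13 of 29 (44.8%). The fold changes ranged from -1.42 (Mrpl50) to 0.28 (Mrpl52) in the large subunit and from -1.10 (Mrps23) to 0.29 (Mrps10) in the small subunit. The sum of large subunit values over the sum of small subunit values was 2.06 and 1.99 in knockout libraries and 2.09 and 2.15 in wild-type libraries. These sums lean on genes of high value. Such genes are Mrpl42 (234 and 215 in knockout against 336 and 606 in wild type) and Mrpl30 (81.7 and 87.3 against 145 and 243). The ratio of sums therefore does not show a difference between the subunits as a whole. Symbols do not follow the structure in every case: Mrps30 and Mrps18a are built into the large subunit of mammals, and Mrps36 belongs to the alpha-ketoglutarate dehydrogenase complex and not to the ribosome. With the subunits set by structure, an alternative added after seeing the data, 26 of 51 large subunit genes and 12 of 26 small subunit genes fell.

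**Figure D1:**
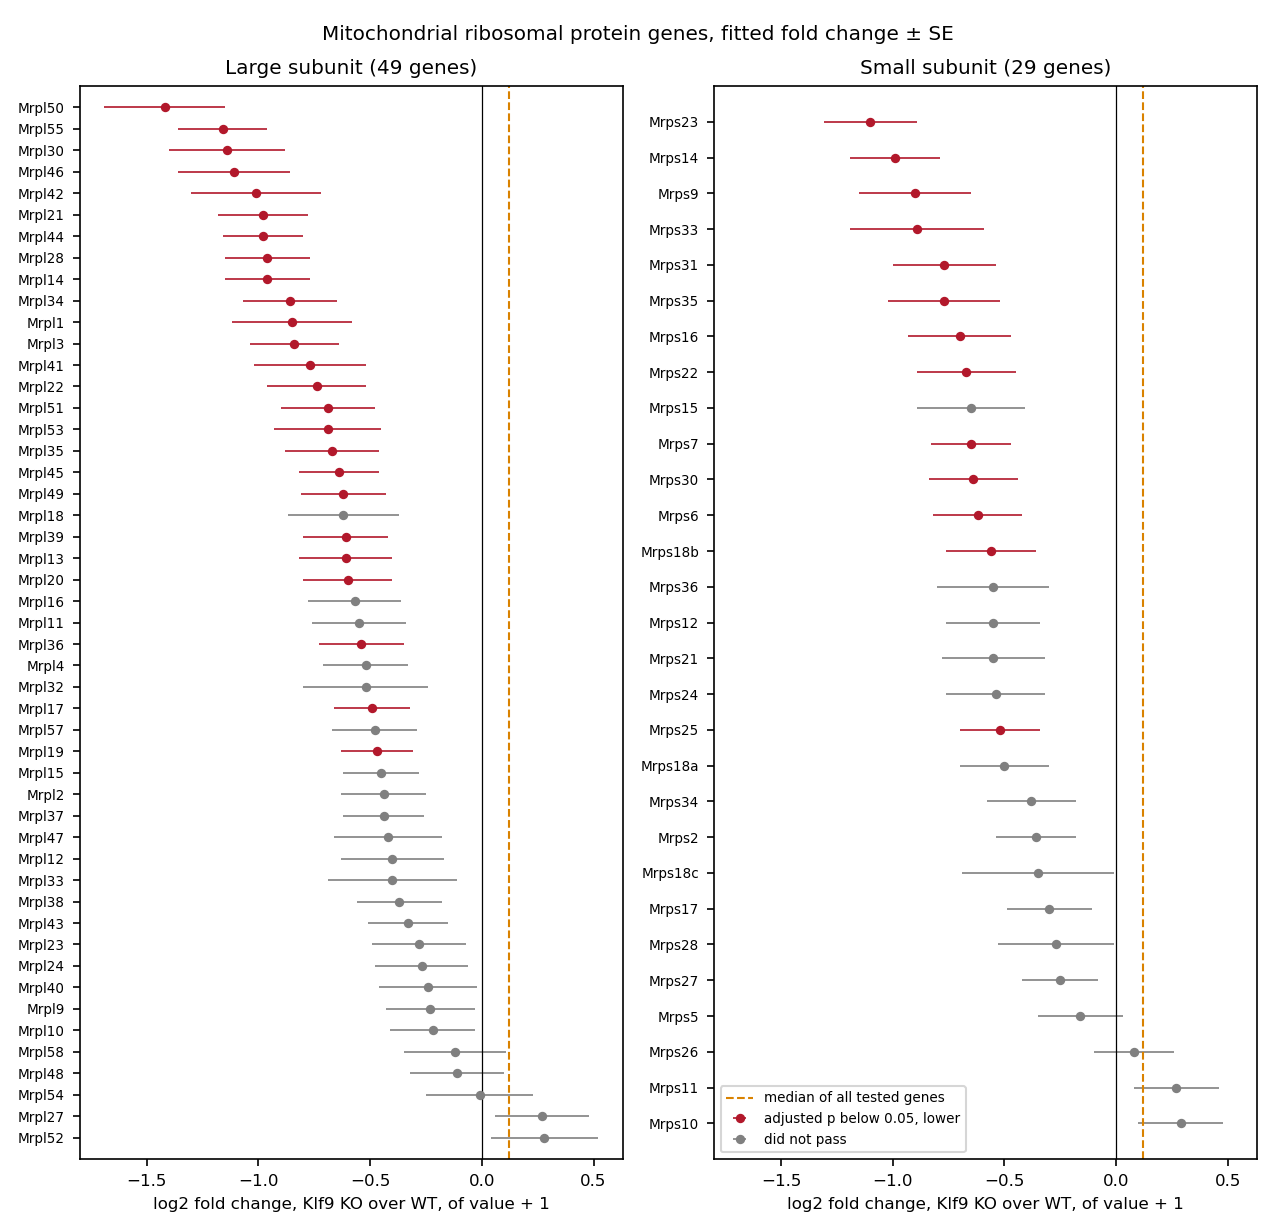
Fitted log2 fold changes (Klf9 KO over WT, of value + 1) with standard errors for the 49 large and 29 small subunit genes, ordered by size; red marks the 25 and 13 genes with limma adjusted p below 0.05, grey those that did not pass, and the dashed line the median of all tested genes (0.12). Right of 0 lie 2 large and 3 small subunit genes, and none of these passed.

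Both knockout libraries lay below both wild-type libraries in 64 of the 78 members (82.1%), where this held for 30.2% of all tested genes, and both lay above in 2 members, Mrps10 and Mrps11, where this held for 45.2%. The wild-type libraries themselves differed. Wild-type replicate 2 was above replicate 1 in 74 members, with a median log2 ratio of 0.44, where 52.4% of all tested genes were higher in replicate 2 and their median was 0.03. The 4 exceptions were Mrpl28, Mrpl38, Mrps27 and Mrps34. The knockout libraries were closer to each other: replicate 2 was above replicate 1 in 52 members, where this held for 56.6% of all tested genes, and the median log2 ratio was 0.08. In the authors' deposited table the median log2 ratio of the members was smaller in size against wild-type replicate 1 (-0.43 and -0.34 for knockout replicates 1 and 2) than against wild-type replicate 2 (-0.86 and -0.76). It was negative in all 4 pairs in both subunits. Across the 78 genes the ratio of knockout 1 to wild type 1 and that of knockout 2 to wild type 2, which share no library, had a Spearman's rho of 0.50, given as a description because genes of one library are not independent.

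**Figure D2:**
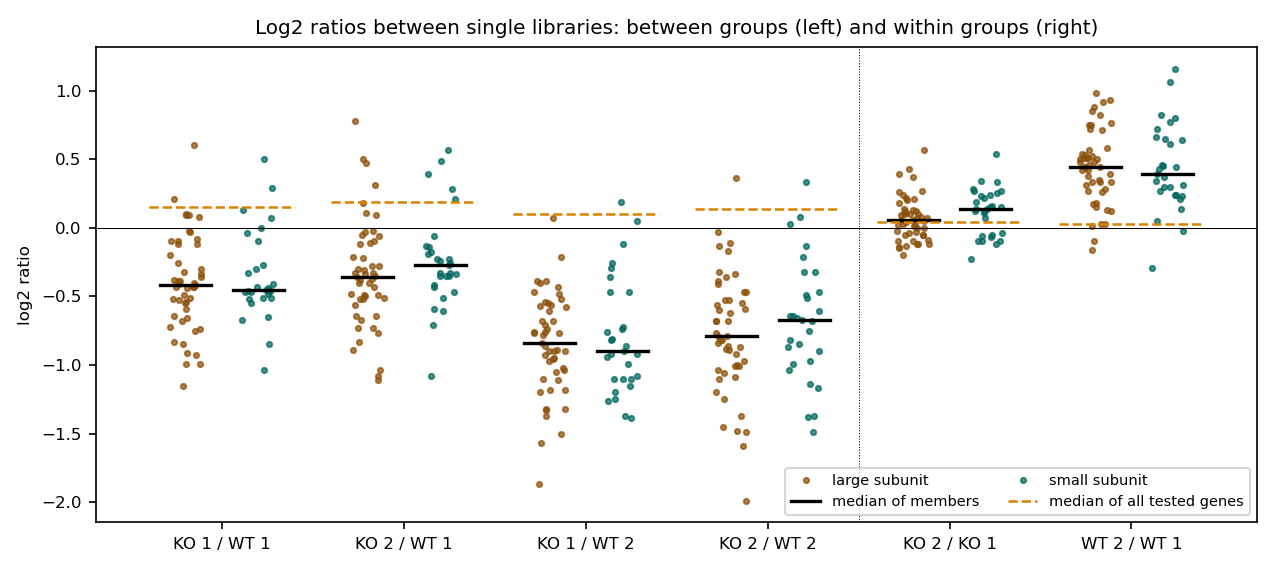
Log2 ratios of single libraries for each member (brown, large subunit; green, small subunit), with member medians as black bars and the median of all tested genes as dashed lines; the first 4 columns are the authors' pairwise ratios and the last 2 are ratios within a group. Members centre between -0.27 and -0.90 in the 4 knockout over wild-type columns and at 0.44 and 0.39 in the column of wild-type replicate 2 over replicate 1.

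How many members passed depended on the libraries used. Without knockout replicate 2 it was 8 (10.3% of members, near the 9.06% of all tested genes), and without knockout replicate 1 it was 10 (12.8%, near the 10.3% of all tested genes). Leaving out wild-type replicate 1 gave 67 (85.9%, against 26.9%) and leaving out wild-type replicate 2 gave 39 of 78 (19.1% of all tested genes). The median fold change relative to all tested genes stayed between -0.88 and -0.53. Among all tested genes the number lower was also smaller without knockout replicate 2 (1100) or replicate 1 (1247) and larger without wild-type replicate 1 (3261). With no filter on low values 14 members were lower (17.9%, against 10.3% of all 17485 genes). When the deposited ratios were used with no recovered level, no filter on low values and no trend setting, 5 members were lower. That is 6.41% of members, under the 8.17% of the 16152 genes with all 4 ratios. Mrpl55 was the only member lower under each of the 13 alternatives, and Mrpl14, Mrpl21, Mrpl28, Mrpl30, Mrpl44, Mrpl46, Mrpl50 and Mrps23 were lower under 12.

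The 5 large subunit genes with the most negative fold changes were Mrpl50, Mrpl55, Mrpl30, Mrpl46 and Mrpl42. Mrpl50 (Entrez 28028), a protein found only in mitochondrial ribosomes, had values of 13.4 and 12.3 in knockout and 26.6 and 49.1 in wild type. The knockout values lay close together and below both wild-type values, and the log2 fold change was -1.42 ± 0.27 (SE; limma adjusted p = 0.00289). Mrpl55 stood at 36.7 and 35.4 in knockout against 72.7 and 91.7 in wild type (log2 fold change -1.16 ± 0.20, limma adjusted p = 0.00165). Here the wild-type libraries differed less from each other than from either knockout library. Mrpl30, a protein with a bacterial counterpart, stood at 81.7 and 87.3 in knockout against 145 and 243 in wild type, and Mrpl42 at 234 and 215 against 336 and 606. For Mrpl30 the log2 ratio of wild-type replicate 2 to replicate 1 was 0.75. Those of knockout replicates 1 and 2 to wild-type replicate 1 were -0.83 and -0.73. For Mrpl42 the wild-type ratio was 0.85, larger in size than the -0.53 and -0.64 of the knockout libraries. The log2 fold changes were -1.14 ± 0.26 for Mrpl30 and -1.01 ± 0.29 for Mrpl42. Without wild-type replicate 2 the log2 fold change was -0.58 for Mrpl42 and -0.74 for Mrpl46. Mrpl42 did not pass without knockout replicate 1 or 2 (limma adjusted p = 0.0704 and 0.128).

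The large subunit core around the peptidyl transferase centre, where peptide bonds are formed, was represented by Mrpl2, Mrpl3, Mrpl4, Mrpl16 and Mrpl27. Of these 5 genes 1 fell, where 17.0% of all tested genes were lower. Mrpl3 had values of 34.5 and 34.2 in knockout and 54.4 and 71.1 in wild type (log2 fold change -0.84 ± 0.20, limma adjusted p = 0.0088). It did not pass without knockout replicate 1 or 2 (limma adjusted p = 0.081 and 0.0986). Mrpl4 missed the threshold narrowly at 73.4 and 70.9 in knockout against 99.8 and 109 in wild type (limma adjusted p = 0.0503), although its groups did not overlap. Mrpl27, whose bacterial counterpart reaches into the catalytic centre, did not pass, with 39.0 and 36.3 in knockout against 25.7 and 37.1 in wild type; these groups overlapped.

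In the stalk, which recruits translation factors to the ribosome, 1 of 5 genes fell, where 17.0% of all tested genes were lower. That gene was Mrpl53, at 33.5 and 35.9 in knockout against 44.4 and 72.3 in wild type. Its log2 fold change was -0.69 ± 0.24 (limma adjusted p = 0.044). Its log2 fold change was -0.35 when wild-type replicate 2 was left out and -1.04 when replicate 1 was. It did not pass without wild-type replicate 2, knockout replicate 1 or knockout replicate 2 (limma adjusted p = 0.0533, 0.203 and 0.147). Mrpl12, the protein of the stalk that contacts the factors, did not pass at 92.3 and 99.1 against 106 and 151. Mrpl54 had the fold change nearest to 0 of all members (57.5 and 74.4 against 53.9 and 80.3; log2 fold change -0.01 ± 0.24), and its sign turned without wild-type replicate 2 or knockout replicate 1. Around the exit tunnel, through which the new protein leaves towards the inner membrane, 4 of 7 genes fell (57.1%, against 17.0% of all tested genes). In all 7 both knockout libraries were below both wild-type libraries, where this held for 30.2% of all tested genes. Mrpl44 was the lowest of the 7, at 19.8 and 17.9 in knockout against 37.7 and 38.4 in wild type. The wild-type values of Mrpl44 agreed closely, unlike those of most members, and its log2 fold change was -0.98 ± 0.18 (limma adjusted p = 0.00228); it did not pass without knockout replicate 2 (limma adjusted p = 0.0581). Mrpl23 and Mrpl24, at the rim of the tunnel, did not pass (-0.28 and -0.27). In the central protuberance, the crest of the large subunit facing the small one, 2 of 6 genes fell (33.3%), Mrpl46 and Mrps30. Mrpl48 (-0.11 ± 0.21) and Mrpl38 (-0.37 ± 0.19) did not pass.

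In the small subunit, Mrps23, a protein without bacterial counterpart, had the most negative fold change. Its values were 58.9 and 50.4 in knockout and 107 and 131 in wild type, with groups far apart (log2 fold change -1.10 ± 0.21, limma adjusted p = 0.00276), and it did not pass without knockout replicate 2 (limma adjusted p = 0.0584). Mrps14 stood at 12.4 and 15.6 in knockout against 25.5 and 32.2 in wild type (-0.99 ± 0.20), and did not pass without knockout replicate 1 (limma adjusted p = 0.0728). Mrps9, of the small subunit head, Mrps33 and Mrps31 followed with -0.90 ± 0.25, -0.89 ± 0.30 and -0.77 ± 0.23. Without wild-type replicate 2 these log2 fold changes were -0.52 for Mrps9, -0.36 for Mrps33 and -0.45 for Mrps31, and that of Mrps33 was -1.41 without wild-type replicate 1. None of these 3 passed without knockout replicate 2 (limma adjusted p = 0.0925, 0.093 and 0.135), nor did Mrps31 without knockout replicate 1 (limma adjusted p = 0.0873). Mrps33 stood at 30.2 and 28.2 in knockout and at 37.9 and 79.1 in wild type, so that wild-type replicate 1 was nearer to the knockout libraries than to its own group. Of 7 genes at the decoding site and along the messenger RNA channel 2 fell (28.6%, against 17.0% of all tested genes), Mrps7 and Mrps9. The paralogs Mrps18a, Mrps18b and Mrps18c, which descend from the same bacterial protein and sit at different places of the ribosome, had log2 fold changes of -0.50 ± 0.20, -0.56 ± 0.20 and -0.35 ± 0.34. Mrps18b passed (limma adjusted p = 0.0449), but not without knockout replicate 1 or 2 (limma adjusted p = 0.481 and 0.158). Mrps18c was spread widely in both groups, at 27.3 and 39.6 in knockout against 28.1 and 62.9 in wild type. Mrps21 stood at 92.2 and 111 against 126 and 174 and did not pass (-0.55 ± 0.23). Mrps36 did not pass (-0.55 ± 0.25, limma adjusted p = 0.105), and the annotation lists 3 pseudogenes of it, among which reads may have been divided. The same limit holds for Mrpl23 and Mrpl48 of the large subunit, with 1 pseudogene each.

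The members with the highest fold changes did not pass the test. Mrps10, of the small subunit head, stood at 18.3 and 22.2 in knockout against 15.0 and 17.7 in wild type (log2 fold change 0.29 ± 0.19, limma adjusted p = 0.234). Mrps11, which lines the platform of the small subunit, stood at 20.3 and 18.9 against 14.4 and 17.9 (0.27 ± 0.19). Both groups stood apart in these 2 genes, by less than the gap within a group. Without wild-type replicate 2 the log2 fold changes were 0.53 for Mrpl27, 0.41 for Mrps10 and 0.42 for Mrps11. Without wild-type replicate 1 they were 0.02, 0.18 and 0.13. Mrpl52 stood at 55.3 and 82.3 in knockout against 48.0 and 64.2 in wild type, and Mrps26 at 25.2 and 28.0 against 23.1 and 27.4, each with overlapping groups. In the authors' deposited table, DEGseq called Mrpl27, Mrpl52, Mrps10 and Mrps11 higher.

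**Figure D3:**
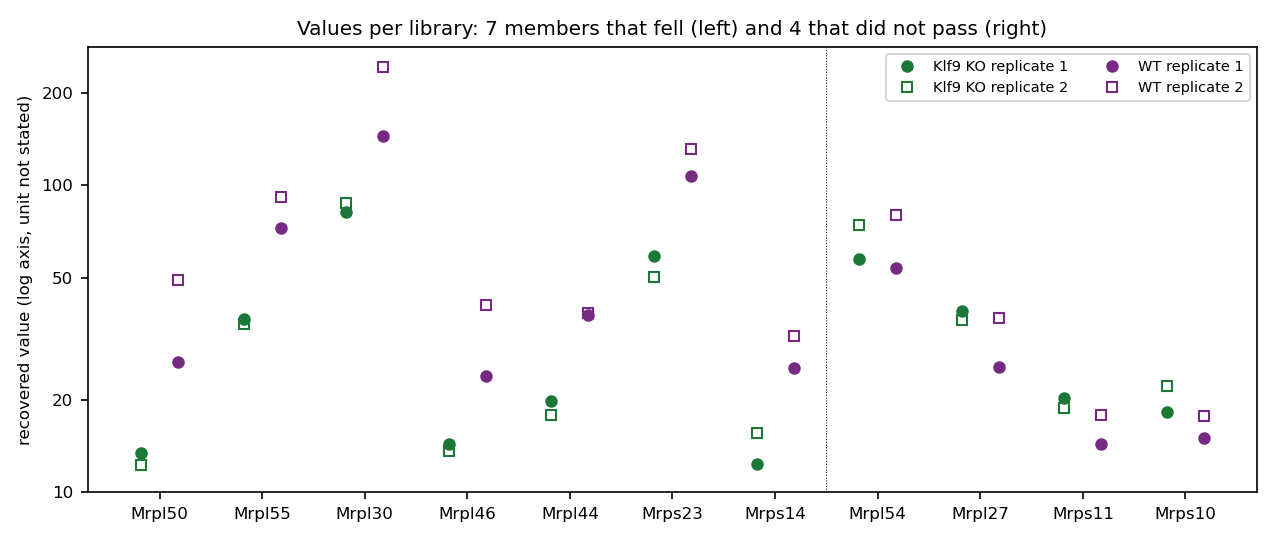
Values of 11 members in each library on a log axis (green, Klf9 KO; purple, WT; filled circles, replicate 1; open squares, replicate 2). The 7 genes on the left fell, with both knockout points below both wild-type points; the 4 on the right did not pass, and in Mrpl54 and Mrpl27 the groups overlap.

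The proteins of the mitochondrial ribosome fall into those with a bacterial counterpart and those found only in mitochondria. In this grouping Mrps30 counts with the large subunit, and Mrpl55, Mrps18a, Mrps18b and Mrps36 are in no class, so its totals are not those by symbol. Of the large subunit, 14 of 29 genes with a bacterial counterpart and 11 of 20 mitochondria-specific genes fell, with median log2 fold changes of -0.54 and -0.62. Of the small subunit the counts were 5 of 16 and 6 of 9, with medians of -0.54 and -0.67. Among all tested genes 17.0% fell. Of 13 members in which human mutations cause combined defects of the respiratory chain, 8 fell, among them Mrpl3, Mrpl44, Mrps14, Mrps22 and Mrps23. The fold changes of these 13 were all negative, between -1.10 and -0.27, and a difference from the other members was not tested.

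Genes that complete the apparatus but carry other symbols were set beside the members. Among all tested genes 17.0% were lower and 27.7% higher. The ribosomal proteins Ptcd3, Chchd1, Aurkaip1, Dap3 and Gadd45gip1 all fell, 5 of 5, with log2 fold changes between -1.16 and -0.59. Ptcd3, which sits where messenger RNA enters, stood at 29.3 and 25.4 in knockout against 49.9 and 77.3 in wild type. Among factors of ribosome assembly and ribosomal RNA modification 8 of 23 tested genes fell and 1 rose, with a median of -0.42. Mtg2, an assembly GTPase, was the lowest (9.83 and 11.3 against 17.6 and 20.2; log2 fold change -0.78 ± 0.18), and the helicase Dhx30 rose (19.4 and 20.3 against 14.3 and 12.2; 0.55 ± 0.18). Of 15 translation factors and messenger RNA stabilisers 7 fell and 0 rose with limma, and at an unadjusted p below 0.05 the count was 8 lower and 1 higher. Slirp, which stabilises mitochondrial messenger RNA, was the lowest of these, with 23.1 and 25.0 in knockout against 37.0 and 88.4 in wild type. Oxa1l, the insertase at the tunnel exit, had the highest fold change and did not pass (70.4 and 72.8 against 55.2 and 50.4; 0.43 ± 0.18). Of 17 mitochondrial tRNA synthetases 5 fell and 0 rose with limma, with 6 lower and 2 higher at an unadjusted p below 0.05, and a median of -0.15. Yars2 was the lowest (-0.94 ± 0.20) and Ears2 the highest (0.46 ± 0.19, did not pass).

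**Figure D4:**
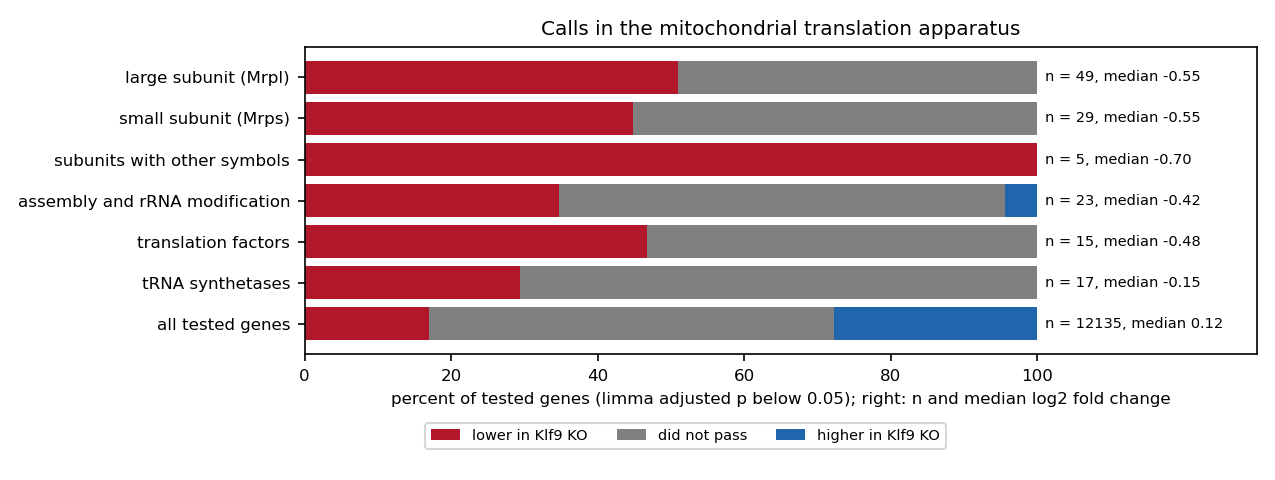
Shares of tested genes that were lower (red), higher (blue) or did not pass (grey) at limma adjusted p below 0.05, for both ribosomal subunits, for other groups of mitochondrial translation genes and for all tested genes, with n and the median log2 fold change at the right. The red share is 51.0% and 44.8% in the subunits and 17.0% in all tested genes.

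The members lie on 17 chromosomes, with at most 11 on one, and many start close to another gene on the opposite strand. In the GENCODE M21 annotation (GRCm38), 25 of the 78 members had a protein-coding gene that started within 500 bases on the opposite strand (32.1%), where this held for 8.90% of all protein-coding genes. In 22 pairs the neighbour was outside the members and tested. Of the 22 neighbours 4 fell (18.2%, close to the 17.0% of all tested genes). Another 6 rose, where 27.7% of all tested genes were higher, and 12 did not pass. The median log2 fold change of the neighbours was 0.22, near the 0.12 of all tested genes, while that of their 22 members was -0.53. Of the 10 members in these pairs that fell, 0 had a neighbour that fell with limma (1 at an unadjusted p below 0.05), 3 had one that rose and 7 had one that did not pass. Among these 7 neighbours, Zfp189, Ighmbp2 and Mitd1 had values close to the 1 added before the log2, where fold changes are understated. Ighmbp2 stood at 1.18 and 1.24 in knockout against 0.95 and 0.49 in wild type. Examples chosen after their values were seen follow. Ncapd2, a condensin subunit of dividing cells that starts beside Mrpl51, stood at 27.6 and 34.1 in knockout against 8.26 and 6.18 in wild type, while Mrpl51 stood at 56.0 and 56.7 against 78.8 and 107. Mitd1, beside Mrpl30, stood at 2.11 and 2.57 against 2.11 and 3.12. The neighbours Ncapd2, Mtbp and Ska3 act in cell division or DNA replication, and the 8 proliferation genes were higher in knockout; the part of that difference here was not tested. Exons of 33 members overlap those of another gene, and nothing says whether counting used the strand, so reads of such neighbours may not be told apart.

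**Figure D5:**
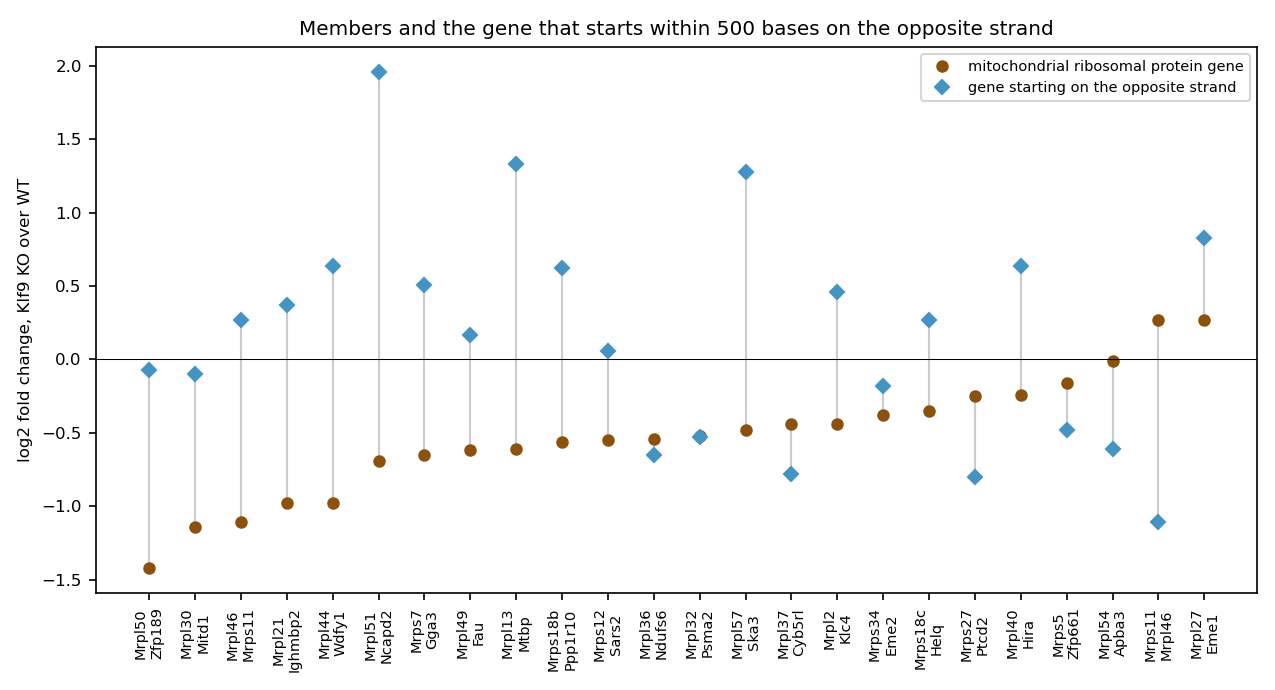
Fitted log2 fold changes (Klf9 KO over WT) of members (brown circles) and of the gene starting within 500 bases on the opposite strand (blue diamonds), ordered by the member's fold change; the pair Mrpl46 and Mrps11 appears from each side. Over the 22 pairs with a neighbour outside the members the circles centre at -0.53 and the diamonds at 0.22, where all tested genes centre at 0.12. The diamond of Mrpl51 (Ncapd2) is the highest.

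The pair Mrpl46 and Mrps11 joins a large and a small subunit gene. In the RefSeq table their start sites lie 42 bases apart on opposite strands of chromosome 7, and their exons overlap in GENCODE. Mrpl46 fell, at 14.4 and 13.6 in knockout against 24.0 and 40.8 in wild type (log2 fold change -1.11 ± 0.25, limma adjusted p = 0.00655; -0.74 without wild-type replicate 2), while Mrps11 did not pass, as given above. The ratio of Mrpl46 to Mrps11 was 0.71 and 0.717 in knockout against 1.67 and 2.28 in wild type. With 2 libraries a group, the exact permutation test of this ratio (two-sided) gave p = 0.333, the smallest it allows, and the pair was chosen after its values were seen.

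Promoters, taken as 250 bases before to 50 after the start in RefSeq (GRCm38.p6), were found for 69 of the 78 members. They were searched on both strands for GCGCA, any base, then GCGC (NRF1), for CCGGAAG (ETS factors), for AAGATG followed directly by GCGG (YY1), and for AAGGTCA (ERR receptors), GGGCGG (the GC box) and CACCC; matches of a motif that overlap each other were each counted, and matches of different motifs may overlap. Krüppel-like factors, Klf9 among them, bind GC-rich elements such as the last 2. The ETS letters were in 36.2% of member promoters, against 18.5% of 9672 promoters of tested genes, and the NRF1 letters in 18.8% against 10.6%. The GC box was in 49.3% against 65.2% and CACCC in 50.7% against 62.9%. Median GC content was also lower in member promoters (58.3%) than in those of tested genes (61.0%). Its part in these shares was not tested. The YY1 letters were in 7.25% against 2.20% and the ERR letters in 5.80% against 2.98%. The median log2 fold change was -0.61 for the 35 members with CACCC and -0.55 for the 34 without, -0.56 with and -0.57 without the GC box, and -0.55 with and -0.56 without the NRF1 letters. It was -0.55 with and -0.58 without the ETS letters. For the YY1 letters, in 5 members, it was -0.44 with and -0.58 without. For the ERR letters, in 4 members, it was -0.55 with and -0.57 without. None of these differences was tested. A match is a description of these windows and does not show binding. The promoters of the most negative gene of each subunit, of Mrpl44, of the Mrpl46 and Mrps11 pair and of Mrps10, which had the highest fold change, follow with motif matches in capitals:
Mrpl50, GRCm38.p6 chr4:49521034-49521333, minus strand: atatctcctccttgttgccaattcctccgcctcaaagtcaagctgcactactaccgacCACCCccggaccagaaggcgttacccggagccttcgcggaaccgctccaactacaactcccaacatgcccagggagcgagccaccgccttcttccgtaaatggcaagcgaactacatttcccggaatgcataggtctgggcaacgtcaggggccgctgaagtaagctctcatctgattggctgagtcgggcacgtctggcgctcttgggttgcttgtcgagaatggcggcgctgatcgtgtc
Mrps23, GRCm38.p6 chr11:88204138-88204437, plus strand: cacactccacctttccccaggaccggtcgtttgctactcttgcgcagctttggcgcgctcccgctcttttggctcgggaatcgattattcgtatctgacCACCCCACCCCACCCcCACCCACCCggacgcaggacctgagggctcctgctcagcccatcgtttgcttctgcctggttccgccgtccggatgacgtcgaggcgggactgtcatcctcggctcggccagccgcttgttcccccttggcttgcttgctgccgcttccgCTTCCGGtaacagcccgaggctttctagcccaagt
Mrpl44, GRCm38.p6 chr1:79775768-79776067, plus strand: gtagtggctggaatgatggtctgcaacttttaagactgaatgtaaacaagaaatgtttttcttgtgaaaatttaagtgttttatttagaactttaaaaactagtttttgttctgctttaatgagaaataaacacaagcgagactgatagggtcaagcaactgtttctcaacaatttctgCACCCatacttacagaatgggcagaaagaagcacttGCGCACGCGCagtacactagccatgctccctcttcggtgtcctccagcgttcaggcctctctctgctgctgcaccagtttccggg
Mrpl46, GRCm38.p6 chr7:78783040-78783339, minus strand: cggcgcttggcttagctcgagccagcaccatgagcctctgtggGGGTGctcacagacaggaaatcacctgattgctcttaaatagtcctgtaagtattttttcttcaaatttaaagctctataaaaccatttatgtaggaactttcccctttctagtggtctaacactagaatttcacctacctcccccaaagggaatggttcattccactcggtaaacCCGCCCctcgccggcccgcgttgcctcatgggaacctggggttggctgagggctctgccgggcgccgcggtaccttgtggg
Mrps11, GRCm38.p6 chr7:78782881-78783180, plus strand: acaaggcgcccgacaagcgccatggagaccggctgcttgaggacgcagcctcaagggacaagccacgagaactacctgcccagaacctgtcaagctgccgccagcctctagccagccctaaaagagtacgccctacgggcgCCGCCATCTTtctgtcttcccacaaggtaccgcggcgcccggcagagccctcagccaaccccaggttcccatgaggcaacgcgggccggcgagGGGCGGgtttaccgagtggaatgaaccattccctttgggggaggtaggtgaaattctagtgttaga
Mrps10, GRCm38.p6 chr17:47368947-47369246, plus strand: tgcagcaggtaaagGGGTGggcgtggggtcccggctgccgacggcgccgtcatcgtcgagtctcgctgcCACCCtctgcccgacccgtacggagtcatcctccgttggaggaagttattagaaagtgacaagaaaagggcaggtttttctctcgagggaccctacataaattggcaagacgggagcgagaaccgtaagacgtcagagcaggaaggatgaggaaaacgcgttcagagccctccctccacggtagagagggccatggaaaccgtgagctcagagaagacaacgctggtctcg
The Mrps23 promoter holds 5 matches of CACCC side by side and 1 of the ETS letters. That of Mrpl44 holds the NRF1 letters. The windows of Mrpl46 and Mrps11 are opposite strands of the same stretch over 141 bases, and the GC box in capitals in both is the same site read from either strand. The Mrps11 window also holds the YY1 letters, and those of Mrpl50 and Mrps10 hold CACCC and none of the other motifs searched.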

How the data were processed

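Total RNA of mouse heart tissue was sequenced in 4 libraries, per the labels. The authors deposited a single table of comparisons with no counts or levels. Per the file headers it gives, per pair of libraries, a log2 ratio with its p-value and false discovery rate (apparently Poisson-based), and a log2 ratio for the groups with DEGseq p-values and q-values. Aligner, genome build, annotation, strandedness and expression unit are not given in the sources used here. A count test was intended for count data, and limma was used because the table has none.

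The ratios of the 16152 genes with all 4 were additive to within 9.9e-14, and continued fractions turned each gene's ratios into 4 whole numbers without a common factor, read as multiples of 0.01 (an assumption). All 17485 genes were resolved. After the ratios of 2000 genes were moved by about 1e-06, 0 were resolved. Where a gene's 4 values share a factor, its ratios stay exact but its level comes out too low. The smallest value, 0.01, may stand for 0.

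limma 3.58.1 (R 4.3.3; trend and robust settings) was fitted, with group as the only term, to log2(value + 1) of the 12135 genes reaching 1 in 2 or more libraries, and was tested on simulated data. A fold change on this scale understates that of low values. The labels' replicate numbers name no litter or batch. Python 3.11.15, numpy 2.4.6, pandas 2.3.3, and matplotlib 3.10.9 were used. Alternatives were RLE, upper quartile and TMM scaling, other filters and pseudocounts, the deposited ratios alone, plain moderation, a replicate block and leaving out each library.

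Members, lists and tests were chosen with earlier results of these data known. Named genes were, per subunit, the 5 called genes with the most negative fold change, the 3 uncalled with the highest and the 2 with the highest mean, the extremes of each structural list, and Mrpl3, Mrpl44 and Mrps36. Of each pathway list outside the members the lowest and highest were named. Other named genes were chosen after their values were seen.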

Additional observations from a re-analysis of the deposited data

How the results depend on the processing

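The median log2 fold change of the members relative to all genes of the same fit was -0.66. It stayed between -0.76 and -0.59 under the scalings, filters, pseudocounts, moderation, deposited ratios and block tried. In 78 members the sign was negative for 73, and for 74 after RLE or TMM scaling, where Mrps26 turned to -0.07 and -0.09.

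The count of members that fell was 38 (25 large, 13 small subunit). With no filter it was 14 (11 and 3). With the deposited ratios and no recovered level it was 5 (4 and 1), where 1320 of the 16152 genes with all 4 ratios were lower (8.17%). The small subunit had 20 lower genes after RLE scaling and 21 after TMM scaling. The cause of these moves was not tested. Leaving out each library in turn gave 8 to 67 members, 7 to 44 large and 1 to 23 small subunit genes lower, 0 to 3 members higher, and 1100 to 3261 lower and 1859 to 4327 higher genes in all. The lone library of a group is then assumed to vary like the others. Over the same omissions Mrpl54 ranged from -0.29 to 0.28, Mrpl52 from 0.00 to 0.56, Mrps26 from -0.04 to 0.19, Mrpl48 from -0.35 to 0.14 and Mrps18c from -0.91 to 0.22 on the log2 scale.

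Over all tested genes, same-numbered libraries did not deviate together (correlation -0.035). This correlation cannot show whether they share a litter or batch, which the labels do not name. With the replicate number as a block 45 members were lower, 36 of them among the 38. The median of all tested genes was 0.12, and -0.02 and -0.03 after RLE and TMM scaling, which gave 53 and 56 lower members of 78. Over all genes, those scalings gave 2618 lower and 2617 higher, and 2695 lower and 2564 higher, against 2061 and 3367. Depth is unknown, so no counting error can be given.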
